A study of Homo sapiens with 6 samples.

Results

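The integrated stress response genes examined here are 10 genes: ATF4, DDIT3 and CEBPB (transcription factors), TRIB3, PPP1R15A and DDIT4 (feedback and growth regulators), and ASNS, PSAT1, PHGDH and CHAC1 (enzymes). They were chosen by name, by joining the counted transcripts to GENCODE gene symbols, and are 10 of the 37339 transcription units (TUs, the span from the start to the end of a counted transcript) that matched a gene. All came from K562, a human cell line from chronic myelogenous leukaemia, grown in RPMI-1640 medium with fetal bovine serum. No treatment was applied, so the values are those of untreated cells and hold no stressed group to compare with. PRO-seq, which maps RNA polymerases that are engaged on DNA and so reads nascent transcription, was run in 2 libraries, and RNA-seq of rRNA-depleted total RNA in 4. Per the paper, the cells for both assays were grown in the same flask. The p-values thus measure the spread between libraries of a single culture and hold no spread between cultures.

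The integrated stress response is a shared answer to amino acid shortage, misfolded protein in the endoplasmic reticulum, haem shortage, viral RNA and mitochondrial stress. Sensor kinases phosphorylate the initiation factor eIF2, which lowers protein synthesis in general and raises translation of ATF4, whose mRNA carries short upstream reading frames. ATF4 then drives genes for amino acid supply and for feedback, among them DDIT3, TRIB3, ASNS and CHAC1, and PPP1R15A brings a phosphatase back to eIF2. Much of the control of ATF4 is therefore translational, a step that neither assay here reads.

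Counts on TUs ranged from 5732780 to 9002746 in the RNA-seq libraries and were 6993816 and 7245632 in the PRO-seq libraries. As a check of the label, 9 of 9 erythroid markers lay above 1 TPM and a summed RNA-seq level of 11849 to 12752 TPM (the transcript abundance unit, counts divided by length and scaled to a fixed total). Of 4 matched markers of other blood cells, LYZ alone passed 1 TPM, at a log2 TPM of 8.38 from summed RNA-seq counts. The list summed to 331 to 343 TPM, nearly all of it from LYZ. In bulk samples fewer cells of a type and less RNA per cell cannot be told apart.

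Levels are given below in TPM for each library. ATF4, the central transcription factor of the response (ENST00000404241, chr22:39915700-39918688, plus strand, GRCh37), stood at 172, 164, 176 and 147 TPM in RNA-seq (165 ± 12.8, SD, n = 4). In PRO-seq it stood at 821 and 935 TPM (878 ± 80.7, SD, n = 2). Among 14965 mRNAs with counts in both assays, ATF4 lay at percentile 93.1 by RNA-seq and 99.6 by PRO-seq. It was the highest of the 10 genes in both assays, and its libraries overlapped with those of no other member.

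DDIT3, which encodes the transcription factor CHOP (ENST00000623876, chr12:57910371-57915520, minus strand), had 120, 133, 116 and 130 TPM in RNA-seq and 174 and 159 TPM in PRO-seq. CEBPB, a bZIP factor that partners with both (ENST00000303004, chr20:48807367-48809205, plus strand), had 25.9, 20.4, 25.8 and 24.9 TPM in RNA-seq and 87.6 and 113 TPM in PRO-seq. CEBPB was the eighth of the 10 by RNA-seq and the fourth by PRO-seq, although its PRO-seq libraries overlapped with those of DDIT4, the next in order. Its PRO-seq level rests on 19 and 25 counts, since the gene has 1 exon and 839 bp were left for counting after the ends of the TU were removed.

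Of the regulators, PPP1R15A, which encodes the eIF2 phosphatase subunit GADD34 (ENST00000200453, chr19:49375678-49379315, plus strand), had 96.8, 94.4, 94.3 and 86.2 TPM in RNA-seq and 330 and 403 TPM in PRO-seq. It was the second of the members by PRO-seq, at percentile 98.8 of mRNAs, and the fourth by RNA-seq, at percentile 87.7. DDIT4, an inhibitor of mTORC1 signalling also called REDD1 (ENST00000307365, chr10:74033678-74035794, plus strand), had 103, 113, 106 and 118 TPM in RNA-seq and 83.1 and 115 TPM in PRO-seq. Its RNA-seq libraries overlapped with those of DDIT3 and lay above all 4 of PPP1R15A. DDIT4 had 24 and 34 PRO-seq counts over 1117 bp. TRIB3, a pseudokinase that restrains ATF4 and CHOP (ENST00000615226, chr20:343479-372030, plus strand), had 36.1, 22.5, 37.5 and 28.9 TPM in RNA-seq and 21.9 and 24.4 TPM in PRO-seq. Replicate 2 was the lowest of the 4, and the TRIB3 range held that of PHGDH and reached into that of PSAT1.

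Among the enzymes, PSAT1, of serine synthesis (ENST00000376588, chr9:80912041-80945009, plus strand), had 39.8, 37.6, 36.4 and 40.1 TPM in RNA-seq and 26.9 and 24.2 TPM in PRO-seq. PHGDH, which opens the same pathway (ENST00000641597, chr1:120191034-120286813, plus strand), had 28.6, 29.3, 27.8 and 29.9 TPM in RNA-seq and 5.59 and 5.56 TPM in PRO-seq. PHGDH thus lay a little under PSAT1 by RNA and well under it by PRO-seq, with no overlap of libraries in either assay. However, 33.5% of the PHGDH body counted for PRO-seq lay within its canonical span, whereas PSAT1 was counted on its canonical transcript. The part of this length in the PRO-seq difference was not tested. CHAC1, which breaks down glutathione (ENST00000617768, chr15:41245669-41248710, plus strand), was near the floor, with 7, 8, 9 and 6 RNA-seq counts (1.18, 1.28, 2.27 and 1.32 TPM) and 5 and 1 PRO-seq counts (9.47 and 1.86 TPM). ASNS, asparagine synthetase (ENST00000394308, chr7:97480989-97501720, minus strand), had 0 counts in all 4 RNA-seq libraries and 0 and 1 in PRO-seq.

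The value of 0 for ASNS goes with an overlap in the annotation. A counted lncRNA, ENSG00000284707, runs over 121298 bp on the same strand and shares 99.5% of the exon bases of ASNS and 99.9% of the body counted for PRO-seq. That lncRNA itself had 0, 5, 1 and 2 counts in RNA-seq and 521 and 505 in PRO-seq. Of 348 mRNAs that share at least 95% of their exon bases on the same strand with another counted TU, 84.2% had 0 RNA-seq counts, against 13.3% of 16497 mRNAs that share none. For PRO-seq bodies, the shares at 0 counts were 76.0% of 1048 mRNAs and 8.75% of 15557. A count of 0 over the 4 libraries allows up to 0.0925 TPM (3 counts, counting error only), but this limit covers reads that were assigned to ASNS and is no limit on its RNA. The part of the overlap in the value of ASNS was not tested, and no fold is given.

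For PHGDH, TRIB3, DDIT3 and ATF4, the counted transcript was not the one that GENCODE marks as canonical. This bears on their values, since lengths and the bases counted for PRO-seq come from the counted transcript. The counted PHGDH transcript starts 63.5 kb upstream of the canonical start and spans 95780 bp, against 32282 bp, and 33.5% of the body counted for PRO-seq lay within the canonical span. The counted TRIB3 transcript starts 17.9 kb upstream and ends 6.17 kb before the canonical end, so that 16.6% of the canonical exon bases were counted. The counted DDIT3 transcript starts 1.22 kb upstream, and that of ATF4 0.867 kb upstream with all canonical exon bases inside it. Each of these starts lies more than 500 bp upstream, so bases around the canonical start stayed in the body counted for PRO-seq. The paper left out 500 bp after the start to avoid a bias from pausing near promoters. The part of these bases in the PRO-seq levels was not tested, and the alternative with canonical lengths keeps their counts. Over the genome, counted and canonical transcripts were the same for 61.0% of 18966 mRNAs, as for PPP1R15A, CEBPB, PSAT1, ASNS and CHAC1 here.

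To set RNA level against transcription, a relative half-life was computed for each TU as length-corrected RNA-seq over PRO-seq, on the log2 scale and relative to the median mRNA. Values given with an SE are coefficients of an edgeR fit, and those of library pairings are plain TPM ratios. The paper based its main results on published libraries instead of those analysed here. It found half-lives from the published libraries to be less variable and closer to other published estimates. The ratio stands for half-life where RNA is at steady state. It also takes in elongation rate, polymerase paused near a start within the counted body, and any error of length. None of these can be told apart from decay in it. It was tested for the 9931 TUs whose level passed 10 TPM by PRO-seq and 1 TPM by RNA-seq, with edgeR's quasi-likelihood test and Benjamini-Hochberg adjustment over all of them. Of the 10 genes, 7 could be tested, 4 lay above the median mRNA and 3 below, at an adjusted p under 0.05. Over all TUs tested, 40.4% lay above and 50.0% below, so that most TUs are called and the members' counts are near this background. The background takes in noncoding TUs beside 8733 mRNAs, and the median log2 half-life of all TUs tested was −0.23. Shares over mRNAs alone are not given. The median log2 half-life of the 7 was 0.22, against 0 for mRNAs by construction, whose quartiles were −1.06 and 1.08. The highest and the lowest member differed 8.02-fold.

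The 3 genes below the median mRNA were ATF4, CEBPB and PPP1R15A. ATF4 had a log2 half-life of −1.77 (SE 0.0767, adjusted p = 9.2e-20), or 0.293 times the half-life of the median mRNA. It was at percentile 13.4 of tested mRNAs, and the 8 pairings of an RNA-seq with a PRO-seq library gave −2.03 to −1.60. Bases just after the canonical ATF4 start were within the counted PRO-seq body, and their part in this value was not tested. For PPP1R15A the log2 half-life was −1.34 (SE 0.0883, adjusted p = 4.8e-15), or 0.395 times the median mRNA, with pairings from −1.59 to −1.14. For CEBPB it was −1.42 (SE 0.268, adjusted p = 1.3e-05), or 0.372 times the median mRNA, with a 95% interval of −1.95 to −0.90. The interval of CEBPB holds the values of both others, so its place among the 3 is not resolved. With 500 bp in place of 1000 bp removed for PRO-seq, CEBPB came to −0.80 and kept its call. CEBPB-AS1, an antisense gene with 25 RNA-seq and 147 PRO-seq counts, covers 12.6% of the CEBPB exon bases on the other strand, and its part in the CEBPB value was not tested.

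DDIT3 was called above the median mRNA by a small margin. Its log2 half-life was 0.22 (SE 0.0924, adjusted p = 0.025), with a 95% interval of 0.04 to 0.41. This call was lost with DESeq2 (adjusted p = 0.08), with canonical lengths (0.16, adjusted p = 0.1), with thresholds of 20 and 2 TPM (adjusted p = 0.06), with a 2-fold difference tested (adjusted p = 1), without RNA-seq replicate 2 (0.19, adjusted p = 0.06), without PRO-seq replicate 2 (0.14, adjusted p = 0.28) and with the replicate number as a block (0.24, adjusted p = 0.063). In addition, 42.6% of the DDIT3 body counted for PRO-seq is shared on the same strand with ENSG00000285133, a counted TU with 0 PRO-seq counts and 13 RNA-seq counts. With lengths limited to bases that no other counted TU shares, DDIT3 turned to −0.48 (SE 0.0954, adjusted p = 3e-05). The direction for DDIT3 is thus not settled by these counts. On the other strand, 16.6% of its exon bases lie under another counted TU (the end of MARS1), whose part was not tested.

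The other genes called above the median mRNA were DDIT4, TRIB3 and PSAT1. PSAT1 had a log2 half-life of 1.23 (SE 0.0875, adjusted p = 3.2e-14), which is 2.35-fold longer than the median mRNA, and all 8 pairings of libraries gave 1.06 to 1.37. TRIB3 had 1.05 (SE 0.141, adjusted p = 4.8e-08), or 2.07-fold longer, and 0.76 with lengths limited to the canonical transcript. DDIT4 had 0.78 (SE 0.181, adjusted p = 0.00021), or 1.72-fold longer, and 1.27 with 500 bp removed. Within the feedback regulators, PPP1R15A thus lay below the median mRNA and TRIB3 and DDIT4 above it. PPP1R15A and DDIT4 show how the assays part: RNA-seq placed them at 92.9 ± 4.65 and 110 ± 6.82 TPM (SD, n = 4), and PRO-seq at 366 ± 51.5 and 99.3 ± 22.9 TPM (SD, n = 2).

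**Figure D1:**
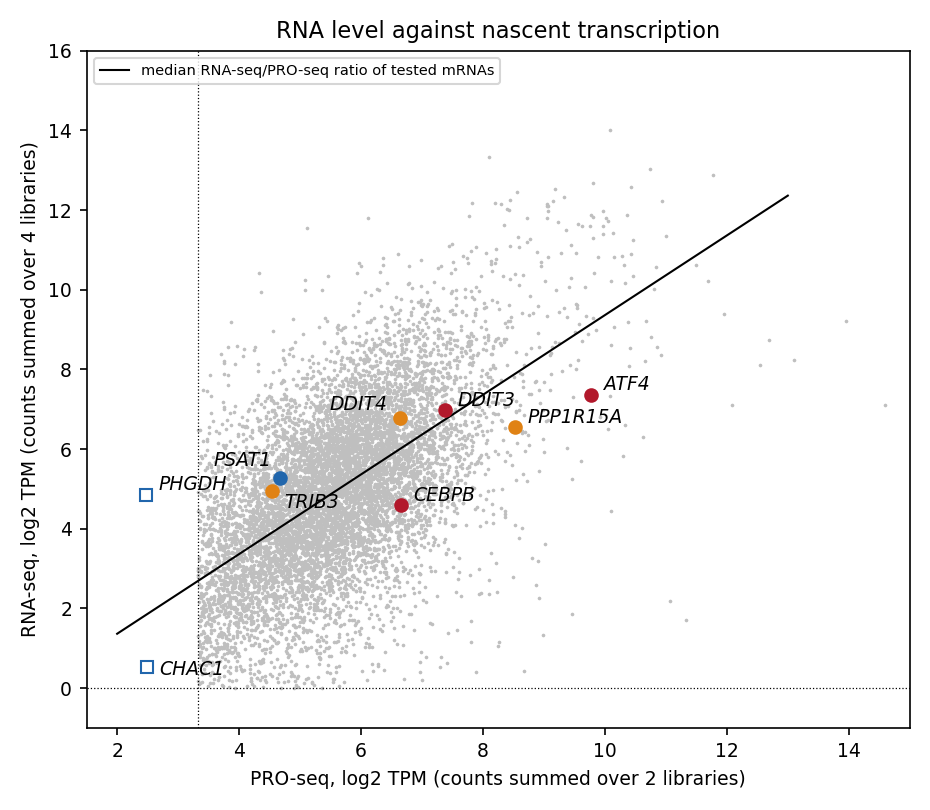
RNA-seq against PRO-seq level, both as log2 TPM from summed counts. Grey points are the 8733 tested mRNAs, the line is their median RNA-seq to PRO-seq ratio, dotted lines are the thresholds of 10 TPM and 1 TPM, filled circles are tested members and open squares are the untested PHGDH and CHAC1. ATF4, PPP1R15A and CEBPB lie under the line, DDIT3 next to it, and DDIT4, TRIB3 and PSAT1 over it.

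PHGDH and CHAC1 did not pass the PRO-seq threshold. For PHGDH the plain TPM ratio gave a log2 half-life of 3.01, with pairings from 2.93 to 3.07. Fits over TUs of the tested classes with at least 10 or at least 1 summed count in each assay gave 3.13 and 3.64 (SE 0.102, adjusted p = 2.3e-276). The latter fit had its centre moved by 0.63. With lengths limited to the canonical transcript PHGDH passed the thresholds and came to 1.92 (SE 0.0948, adjusted p = 1.2e-18). It stayed above the median mRNA in each, by an amount that depended on which transcript set the length. For CHAC1 the plain ratio was −1.32 with pairings from −2.37 to 0.93, and the fit over TUs with at least 1 count in each assay gave −0.68 (SE 0.783, adjusted p = 0.44). A difference of CHAC1 from the median mRNA was not detectable at this depth.

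The upstream reading frames for which these mRNAs are known are shown next, since they set translation and are read by neither assay. In the canonical transcripts, or the counted one for DDIT4, for which none is marked canonical, 4 of the 10 genes have an ATG before the coding start (ATF4 3, DDIT3 3, PPP1R15A 2 and TRIB3 2), against 38.8% of 8727 tested mRNAs. The first 2 frames of ATF4 are short, and the last, of 180 nt, starts at base 186 of a 282-nt 5′ UTR and so runs past the coding start. In DDIT3 the first frame, of 105 nt, starts at the first base of ENSG00000285133, whose exons also add up to 105 nt. The frame start, and the stop where it fits, are in capitals (GRCh37, read 5′ to 3′ along the mRNA).
ATF4, first frame, chr22:39916591-39916596, plus strand: ATGTAG
ATF4, next frame, chr22:39916653-39916664, plus strand: ATGgcgtatTAG
DDIT3, first frame, opening 30 bases, chr12:57914234-57914263, minus strand: ATGttaaagatgagcgggtggcagcgacag
PPP1R15A, first frame, opening 30 bases, chr19:49375712-49375741, plus strand: ATGcaagacgctgcacgaccccgcgcccgc
PPP1R15A, next frame, opening 30 bases, chr19:49375811-49375840, plus strand: ATGaacgcgctggcctccctaaccgtccgg
Of the 4 genes with such frames, ATF4 and PPP1R15A lay below the median mRNA in half-life, TRIB3 above it and DDIT3 near it.

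AU-rich elements in 3′ UTRs are known to speed decay of some mRNAs, and their core, ATTTA, was counted on the mRNA strand. It was present in 6 of the 10 genes, against 72.8% of tested mRNAs. PPP1R15A has 2 in a 3′ UTR of 85 nt, at percentile 2.92 of length, DDIT3 has 2 in 216 nt, and PSAT1 has 2 in 1007 nt. CEBPB, ASNS and CHAC1 have 1 each. ATF4, with a log2 half-life of −1.77, has none in a 3′ UTR of 81 nt, at percentile 2.70. The pentamers of PPP1R15A, DDIT3 and PSAT1 are shown in capitals, 1 to a line, and the 2 of DDIT3 share a base.
PPP1R15A, chr19:49379241-49379265, plus strand: tttgcctataATTTAttaactattt
PPP1R15A, chr19:49379252-49379276, plus strand: tttattaactATTTAttttttctaa
DDIT3, chr12:57910405-57910429, minus strand: gagattgtacATTTAtttattactg
DDIT3, chr12:57910401-57910425, minus strand: ttgtacatttATTTAttactgtccc
PSAT1, chr9:80944588-80944612, plus strand: atttctatacATTTAtatttctaat
PSAT1, chr9:80944640-80944664, plus strand: cacttttagaATTTAttaaatcctt
PPP1R15A and PSAT1 both hold 2 copies, at 23.5 and 1.99 per kb of 3′ UTR, with log2 half-lives of −1.34 and 1.23. A relation of these copies to half-life was not tested. A match is a description and not a tested site.

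The composite site bound by ATF4 with a C/EBP partner was searched as TGATGNAA on both strands, in RefSeq promoter windows (GRCh38.p14) of 250 bases before to 50 after a start. It was found in 3.62% of 35116 promoters and in 2 of the 16 promoters of the 10 genes, those of ASNS and CHAC1, both known targets of ATF4. The cAMP response element TGACGTCA, searched after the values had been seen, was in 1.85% of promoters and in that of PPP1R15A. The matches, in capitals, begin 68, 209 and 58 bases before the start.
ASNS, chr7:97872443-97872502, minus strand: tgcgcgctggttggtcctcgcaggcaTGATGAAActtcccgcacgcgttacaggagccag
CHAC1, chr15:40953236-40953295, plus strand: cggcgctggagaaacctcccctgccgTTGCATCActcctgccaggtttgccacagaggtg
PPP1R15A, chr19:48872337-48872396, plus strand: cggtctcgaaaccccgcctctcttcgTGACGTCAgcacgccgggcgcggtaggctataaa
PPP1R15A had the second highest PRO-seq level of the members, CHAC1 6 PRO-seq counts in all, and ASNS could not be read. That no match was found in the other promoters says only that these letters are not in the windows.

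The rest of the pathway was read from 6 lists of 61 genes, of which 60 matched and 47 were tested. Of these, 26 lay above the median mRNA, 17 below, and 4 were not called, with a median log2 half-life of 0.30. Over all TUs tested, noncoding ones included, 40.4% lay above and 50.0% below, and no list was tested against these shares. With lengths limited to the canonical transcript, 23 genes lay above and 22 below. Of 11 genes for eIF2 and eIF2B subunits and the phosphatase, 9 lay above and 2 below (median 1.34), and 8 and 3 with canonical lengths. EIF2S3, the gamma subunit of eIF2, was the highest at 2.77 (SE 0.0445, adjusted p = 5.1e-31), and EIF2B2 of the exchange factor the lowest at −1.16 (SE 0.113, adjusted p = 4.8e-11). PPP1CA, of the phosphatase, turned from 2.35 (SE 0.0753) to −1.43 (SE 0.0805) with canonical lengths. Its reads were not counted again on the canonical transcript, so its direction depends on which transcript sets the length. Of 5 tested sensors, 3 lay below and 1 above (median −0.69), a share below near that of all TUs. The highest of the sensors was EIF2AK4, the kinase GCN2 that reads uncharged tRNA, at 0.64 (SE 0.0603, adjusted p = 2.6e-11). The lowest was DELE1, which relays mitochondrial stress, at −1.21 (SE 0.0697, adjusted p = 1.5e-16).

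For amino acid synthesis, 7 of 8 tested genes lay above and none below (median 1.39), against 40.4% and 50.0% of all TUs, noncoding ones included. The counts were 6 of 7 and none with canonical lengths. PYCR1, of proline synthesis, stood highest at 4.01 (SE 0.0984, adjusted p = 2.8e-26), though it shares 21.9% of its PRO-seq body with another counted TU and its counted transcript is not the canonical one. With canonical lengths PYCR1 came to 2.99 (SE 0.106). CTH, of cysteine synthesis, stood lowest at −0.10 (SE 0.151, adjusted p = 0.51), and at −0.08 with canonical lengths. For transport, 6 of 9 tested genes lay below and 2 above (median −0.55), and 8 and 1 with canonical lengths. SLC6A9, a glycine transporter, was the lowest at −2.50 (SE 0.175, adjusted p = 2e-14), and SLC3A2, the heavy chain shared by several transporters, the highest at 1.04 (SE 0.0485, adjusted p = 6.8e-19). Neither was counted on its canonical transcript. With canonical lengths SLC6A9 stayed at −2.48, whereas SLC3A2 turned to −0.72 (SE 0.0485, adjusted p = 3.6e-15). The counts were the same, so the direction of SLC3A2 depends on which transcript sets the length. The difference between the synthesis and transport lists was not tested.

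Other bZIP and related factors were split, with 4 of 8 above and 3 below (median 0.23), and 4 and 4 of 9 with canonical lengths (median −0.03). ATF6, a sensor of endoplasmic reticulum stress, was highest at 0.83 (SE 0.0475, adjusted p = 1.6e-16). CEBPD was lowest at −4.30 (SE 0.399, adjusted p = 1.9e-11), a value that rests on 29 PRO-seq counts in a TU of 1252 bp. The stress and growth targets were split evenly, with 3 above and 3 below (median −0.13). With canonical lengths 7 were tested, 3 above and 4 below (median −0.44), and GDF15 was then the lowest at −4.39 (SE 0.391). That value rests on 19 RNA-seq and 56 PRO-seq counts. At its counted length GDF15 was under both thresholds, with 0.95 TPM in RNA-seq and 8.12 TPM in PRO-seq. EIF4EBP1, a repressor of cap-dependent translation, stood at 1.67 (SE 0.0837, adjusted p = 4.6e-18) and STC2, a secreted glycoprotein, at −2.38 (SE 0.150, adjusted p = 1.5e-15). FGF21 and SLC7A3, both known ATF4 targets, had 0 RNA-seq counts.

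The mRNAs with levels most like those of ATF4 over the 6 libraries, by Euclidean distance of log2(TPM + 1), were HSPA5 (0.485), an endoplasmic reticulum chaperone, FTH1 (0.520), the ferritin heavy chain, and PDCD2 (1.01). Their log2 half-lives were −1.52, −2.12 and −0.98. Those nearest to DDIT3 were H2AZ2 (0.224), NDUFA5 (0.261) and KHSRP (0.263), with log2 half-lives of 0.21, 0.30 and 0.13. Half-lives near those of ATF4 and DDIT3 follow from the choice, since the same levels give both the distance and the ratio. Processed copies could take reads from their parent genes. The counts of the copies hold only reads assigned to them, so a loss of reads from the parents was not tested. Of 10 entries named as pseudogenes of the members, 6 had no count in either assay. ATF4P3 and ATF4P4 held 30 and 8 RNA-seq counts, and the 4 ATF4 copies together came to 0.886% of the 4291 counts of ATF4. PSAT1P3 held 1 RNA-seq count. ASNSP1, which was classed as a lincRNA and spans chr8:47490835-47550508, had 25 RNA-seq and 293 PRO-seq counts over that span.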

How the data were processed

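PRO-seq (2 libraries) and rRNA-depleted total RNA-seq (4 libraries) of K562 cells were analysed. The authors trimmed reads with Cutadapt, aligned them to GRCh38 with HISAT2 and deposited raw HTSeq counts per transcript, labelled as the longest of each gene, with 500 bp trimmed off both ends of TUs in PRO-seq, per the methods (the deposited label gives 500 bp without naming the ends). Versions and strand settings are not given in the sources at hand. Records naming no TU (66.5% to 68.6% in RNA-seq, 86.5% and 88.6% in PRO-seq) stayed out of totals. Of 42371 transcripts, 88.1% matched GENCODE lifted to GRCh37 by identifier, which gave lengths and coordinates and can differ from the authors' annotation.

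TPM used exon length for RNA-seq and span minus 1000 bp for PRO-seq. Counts were tested with edgeR (version 4.0.16, R version 4.3.3, TMM, length offsets, no block), centred on the median mRNA and checked on simulated data. DESeq2 (version 1.42.0), other thresholds, lengths and omitted libraries were alternatives. Same-numbered RNA-seq and PRO-seq libraries did not deviate together (correlation −0.0115 over 9843 TUs). Members and lists were chosen with earlier results of these data known. All 10 members were named, with the highest and lowest tested gene of each wider list, the 3 mRNAs nearest to ATF4 and to DDIT3, and pseudogenes with counts. Half-life intervals cover library spread, and the limit for ASNS counting error only.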

Additional observations from a re-analysis of the deposited data

Results flagged for a closer look

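CHAC1 had 1 RNA-seq library apart from the others: replicate 3 stood at 2.27 TPM, above 1.18, 1.28 and 1.32 TPM, by more of the range than Dixon's 95% limit for 4 values allows. The library held 9 CHAC1 counts, against 6 to 8 in the others. Chance gives such a value in about 1 of 20 groups, and 9 genes were examined. A signal also appeared in a TU outside the comparisons: ENSG00000284707, the lncRNA that covers ASNS on the same strand, held 1026 PRO-seq counts over 2 libraries and 8 RNA-seq counts over 4. These counts fall on 121298 bp, and how many of them come from polymerases on ASNS was not tested.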

How the results depend on the processing

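Directions for ATF4, CEBPB, PPP1R15A, TRIB3, DDIT4 and PSAT1 held under the alternatives that kept length offsets. Log2 half-lives ran from −1.85 to −1.14 for ATF4, −1.58 to −0.80 for CEBPB, −1.46 to −0.71 for PPP1R15A, 0.76 to 1.68 for TRIB3, 0.58 to 1.41 for DDIT4 and 1.14 to 1.86 for PSAT1. The fit with at least 1 summed count moved the centre by 0.63, and it called 6545 TUs above and 7730 below. With no length offsets, which leaves RNA-seq and PRO-seq lengths uncorrected by construction, ATF4 came to 1.69, PPP1R15A to 2.02 and TRIB3 to −0.40, and 1 member lay below. A test of a 2-fold difference called 2138 of 9931 TUs above and 2903 below, 1 member above and 3 below, and 12 and 8 genes of the wider lists. Under it TRIB3 (1.05, adjusted p = 0.29), DDIT4 (0.78, adjusted p = 1) and DDIT3 (0.22, adjusted p = 1) were not called. DDIT3 was lost at 20 and 2 TPM (0.19), with DESeq2 (0.22), with canonical lengths (0.16) and without RNA-seq replicate 2 (0.19) or PRO-seq replicate 2 (0.14), though not without any of the other 4 libraries (range over all 6 omissions 0.14 to 0.30), and turned to −0.48 with unshared lengths. The canonical and unshared lengths were chosen after seeing the data. With the replicate block, over replicates 1 and 2, 3917 TUs lay above and 4856 below, DDIT3 was not called (0.24), and no other member changed its call. Over the same 4 libraries without the block the counts were 3935 and 4891. Depth limits CHAC1, CEBPB and DDIT4 in PRO-seq, with 6, 44 and 58 counts.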
